A study of Mus musculus with 36 samples.

Results

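The knockout line at day 5 was compared with the same line at day 3. The comparison takes in 6 of the 36 libraries of the series, 3 at each day, chosen by their labels. AB2.2, a mouse embryonic stem cell line, was differentiated as hanging-drop embryoid bodies after withdrawal of the cytokine LIF, and RNA of whole embryoid bodies was sequenced. In the knockout line Cas9 and a pair of guides flanking the gene had removed LncCPR, a long noncoding RNA that the series title connects with cardiogenesis. The day 3 and day 5 groups share this deletion and the absence of LIF, and by their labels differ in time. The unedited AB2.2 control line at the same days, also 3 libraries each, serves as the background. Edited cells were sorted singly and expanded, and how many such lines the knockout libraries represent is not given, so a trait of 1 clone and an effect of the deletion cannot be told apart. The labels do not say whether the 3 libraries of a group came from separate cultures, so p-values measure the spread between these libraries, which may be technical.

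In this interval a mouse embryoid body passes from an epiblast-like state into one that resembles the primitive streak, the site where epiblast cells leave the epithelium to become mesoderm or endoderm. Nodal and Wnt signals start the streak, the T-box factors T and Eomes act in it, and its anterior end gives rise to endoderm and to the organizer, which secretes antagonists of Nodal, BMP and Wnt. Mesp1 then marks the mesoderm that leaves the streak and forms the heart. In bulk RNA of whole embryoid bodies, fewer cells of a type and less RNA per cell cannot be told apart.

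The deposited values are FPKM, fragments divided by transcript length and by library size, so the absolute depth is unknown. Day 3 and day 5 sit in separate tables, and whether the tables were scaled together is not stated, so day and table cannot be told apart. Each comparison was therefore made on the values as deposited and again after median-ratio rescaling, in which the typical gene is set equal between libraries. The 6 knockout libraries summed to between 339064 and 377037 FPKM, and their relative depth spanned 1 to 1.32 times the shallowest of them. On the same scale the control libraries stood at 0.66, 0.93 and 0.87 at day 3 and at 1.87, 1.07 and 1.23 at day 5. Each control library of day 5 was thus deeper than each of day 3. What this does to the control change or to the difference between the lines was not tested. No entry is named LncCPR, so the deletion could not be read directly. The RIKEN transcript 4930500J02Rik, which separates the lines, was listed at 0, 0 and 0.137 FPKM in the knockout libraries at day 3 and at 0.28, 0 and 0 FPKM at day 5, against 11.1 to 24.1 FPKM in the 6 control libraries. Control replicate 1 at day 3 stood apart from the rest. Its values summed to 294740 FPKM, the lowest of the 12 libraries. The mitochondrial ribosomal RNA mt-Rnr2 was listed at 38464 FPKM in it and at 49728 FPKM in control replicate 2 of day 3, and at 0 in the other control libraries and the 6 knockout libraries.

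Of 12387 genes that averaged at least 1 FPKM across the 6 knockout libraries, 4431 passed an adjusted p of 0.05 (limma on log2(FPKM + 1), Benjamini-Hochberg), which is 35.8%. As deposited, 3013 of them were higher at day 5 (24.3%) and 1418 were lower (11.4%), so that 68.0% of the calls were higher. The median log2 change of all genes tested was 0.11 as deposited and -0.0044 after rescaling. The rescaled values gave 4628 calls (37.4%), 2352 higher and 2276 lower, and 50.8% of the calls were higher. Every gene that was higher after rescaling was also higher as deposited, and every gene lower as deposited was also lower after rescaling. In what follows a gene rose or fell only where it passed in both, which held for 2352 genes that rose (19%) and 1418 that fell (11.4%). Each list count below is to be read beside these shares of all genes tested. Log2 changes are day 5 minus day 3 as deposited, with the SE of the model. They understate the change of genes near 0, because 1 is added to each value.

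Most genes of the primitive streak list rose. Of its 17 genes, 15 reached the filter and 14 of these rose, beside 19% of all genes tested. Their median log2 change was 3.85, and that of all genes was 0.11. Of the 15, 9 reached the filter through day 5 alone and had to differ, so the count and the median are a description. The same holds for 6 of the 19 Wnt, 4 of the 16 BMP, 6 of the 10 definitive endoderm, 2 of the 15 visceral and parietal endoderm and 4 of the 12 mesenchymal genes tested below, and for genes of the other lists that were under 1 FPKM at day 3. T, the T-box factor needed to form mesoderm, was listed at 0.361, 0.333 and 0.0734 FPKM in the day 3 libraries and at 116, 133 and 127 FPKM in the day 5 libraries. The lowest day 5 library lay far above each day 3 library, and the log2 change was 6.66 (SE 0.12, adjusted p = 1.72e-08). Cer1, a secreted antagonist of Nodal, BMP and Wnt, went from 0.14, 0.107 and 0.253 FPKM to 122, 116 and 113 FPKM, also a log2 change of 6.66 (SE 0.10, adjusted p = 6.03e-09). Both genes were near 0 in each day 3 library, and the libraries of the days did not overlap.

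Eomes, the T-box factor of the early streak, stood at 2.29, 3.33 and 2.89 FPKM at day 3 and at 69.6, 70.2 and 70.9 FPKM at day 5 (log2 change 4.22, SE 0.12, adjusted p = 1.15e-07). Its SD among the day 5 libraries was 0.677 FPKM. Foxa2, a forkhead factor of anterior streak and endoderm, went from 0.638, 0.868 and 0.355 FPKM to 59.1, 65.5 and 62.3 FPKM (log2 change 5.30, SE 0.13, adjusted p = 1.01e-07). Fgf8, a ligand that streak cells need to migrate, went from 0.387, 1.51 and 1.18 FPKM to 44.9, 42.6 and 51.4 FPKM (log2 change 4.58). The homeobox genes Lhx1 and Gsc, both active in the organizer, rose from 0.129 ± 0.00917 to 25.9 ± 1.40 FPKM and from 0.291 ± 0.192 to 20.8 ± 1.01 FPKM (mean ± SD, n = 3). Mixl1, a homeobox gene of the streak, rose from 0.406 ± 0.0983 to 16.6 ± 1.61 FPKM. Evx1, a homeobox gene of the posterior streak, rose to only 2.79 ± 0.841 FPKM. Cyp26a1, which degrades retinoic acid, rose from 1.18 ± 0.123 to 30.4 ± 1.57 FPKM, and Fst, an antagonist of activin, from 4.21 ± 0.90 to 65.1 ± 7.1 FPKM.

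The member that reached the filter and was not called was Nodal itself, at 12.3, 15.8 and 15.1 FPKM at day 3 and 13.6, 15 and 17.7 FPKM at day 5 (log2 change 0.09, SE 0.13, adjusted p = 0.625). Its libraries of the 2 days overlapped. Wnt3a and Tbx6, which act in the later, posterior streak, stayed under the filter, at no more than 0.59 FPKM in any of the 6 libraries. All 15 streak genes tested had their highest mean of the 6 days at day 5 in this line.

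**Figure D1:**
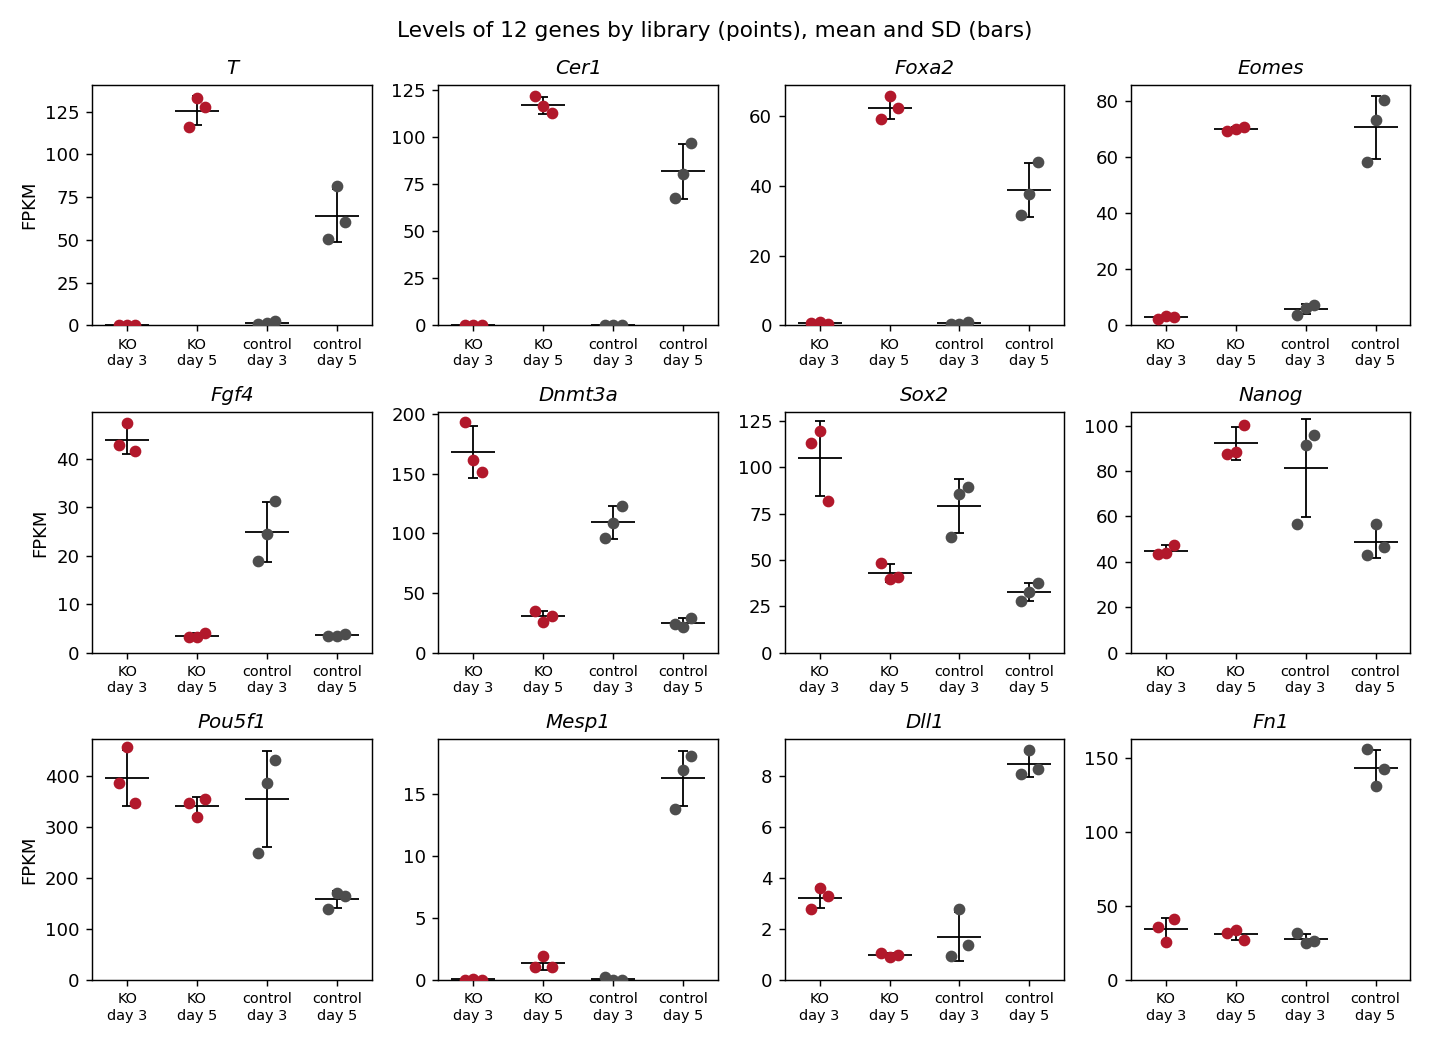
FPKM of 12 genes in each library (points; red, knockout; grey, control) with the mean and SD of 3 libraries (bars). T, Cer1, Foxa2 and Eomes are near 0 at day 3 and high at day 5 in both lines, Nanog is higher at day 5 in the knockout, and Mesp1 and Fn1 are high only in the control libraries of day 5 shown here.

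Of the 25 genes of the Wnt list, 19 were tested, 12 rose and 3 fell, with a median log2 change of 1.36. Among the ligands, Wnt3, which is needed to start the streak, went from 0.874, 1.26 and 0.865 FPKM to 8.27, 6.4 and 8.63 FPKM (log2 change 2.13, SE 0.15, adjusted p = 1.7e-05). Wnt8a, a ligand of the posterior streak, went from 1.04, 1.48 and 1.54 FPKM to 19.9, 18.3 and 21.4 FPKM (log2 change 3.15, SE 0.13, adjusted p = 1.15e-06). Both ligands stood apart between the days in every library. Rspo3, a secreted protein that strengthens Wnt signals, rose from 0.266 ± 0.199 to 15.8 ± 0.778 FPKM, and the receptor for such proteins, Lgr5, rose with a log2 change of 2.74. Of the genes that Wnt signals are known to induce, Axin2 rose from 4.06 ± 0.476 to 18.8 ± 1.73 FPKM, Sp5 from 0.0355 ± 0.0389 to 10.5 ± 1.5 FPKM and the Wnt antagonist Dkk1 from 0.265 ± 0.108 to 9.91 ± 0.798 FPKM. The members that fell were the secreted antagonist Sfrp2 (log2 change -0.90), the receptor Fzd7 (-0.62) and the repressor Tcf7l1 (-0.59). Lef1, a factor that carries the Wnt signal to DNA, had a log2 change of -0.08 and was not called.

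TCF and LEF factors bind the core CTTTGA, or TCAAAG on the other strand. The 250 bases before the start of T, Sp5 and Dkk1, which rose together, are printed with this core in capitals, beside those of Mesp1, which was at no more than 1.91 FPKM in any knockout library of these days. The sequences are from RefSeq (GRCm38.p6, mouse), 5′ to 3′ on the strand of the gene.
T, chr17:8434173-8434422, plus strand: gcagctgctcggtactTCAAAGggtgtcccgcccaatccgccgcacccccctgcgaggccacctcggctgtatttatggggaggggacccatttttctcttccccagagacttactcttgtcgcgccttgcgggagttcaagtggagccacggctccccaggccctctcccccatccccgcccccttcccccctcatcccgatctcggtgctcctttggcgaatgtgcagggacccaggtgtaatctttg
Sp5, chr2:70474673-70474922, plus strand: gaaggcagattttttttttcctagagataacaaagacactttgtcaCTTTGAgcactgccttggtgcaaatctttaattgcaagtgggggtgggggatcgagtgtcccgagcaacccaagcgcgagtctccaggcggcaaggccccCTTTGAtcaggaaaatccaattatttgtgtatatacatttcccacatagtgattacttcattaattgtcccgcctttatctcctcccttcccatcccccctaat
Dkk1, chr19:30549497-30549746, minus strand: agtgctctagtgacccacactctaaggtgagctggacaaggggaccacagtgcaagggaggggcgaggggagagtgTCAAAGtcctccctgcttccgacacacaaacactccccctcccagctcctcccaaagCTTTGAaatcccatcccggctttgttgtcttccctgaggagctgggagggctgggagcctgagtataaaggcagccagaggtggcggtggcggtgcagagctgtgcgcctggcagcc
Mesp1, chr7:79793591-79793840, minus strand: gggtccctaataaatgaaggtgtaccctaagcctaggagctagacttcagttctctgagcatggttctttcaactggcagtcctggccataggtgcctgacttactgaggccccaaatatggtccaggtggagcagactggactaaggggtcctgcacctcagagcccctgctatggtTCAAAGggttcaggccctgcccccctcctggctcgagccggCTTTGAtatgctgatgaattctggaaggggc
The T window holds 1 match, 234 bases before the start, and the Sp5, Dkk1 and Mesp1 windows hold 2 each. Of 32851 promoter windows of this length, 13.8% hold at least 1 match on either strand. A match is a run of letters and not a bound site.

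The Nodal list had 17 of 18 genes tested, of which 9 rose and 4 fell, with a median log2 change of 0.45. The coreceptors rose. Tdgf1, the coreceptor through which Nodal acts, went from 193, 205 and 172 FPKM to 428, 394 and 443 FPKM (log2 change 1.15, SE 0.12, adjusted p = 0.000133), and the lowest day 5 library lay above the highest day 3 library. Its relative Cfc1 rose from 0.28 ± 0.334 to 11.6 ± 1.74 FPKM. The feedback antagonists of Nodal went both ways. Lefty2 fell from 43.4, 45.4 and 40.5 FPKM to 18.4, 15.6 and 19 FPKM (log2 change -1.24, SE 0.11, adjusted p = 5.3e-05) and Lefty1 from 20.4 ± 1.74 to 9.15 ± 1.52 FPKM, while Cer1 rose. The related ligand Gdf3 fell (log2 change -1.28). The signal transducer Smad3 and the factor Foxh1, which binds DNA with it, rose with log2 changes of 1.24 and 0.58.

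Of the BMP list, 16 of 22 genes were tested, 10 rose and 2 fell. The ligands Bmp7 and Bmp2 rose, Bmp7 from 0.486, 0.356 and 0.325 FPKM to 13.4, 13.7 and 13.4 FPKM (log2 change 3.38, SE 0.11, adjusted p = 4.21e-07) and Bmp2 from 0.0994 ± 0.0857 to 5.77 ± 0.735 FPKM. Bmp4, the ligand known to induce posterior mesoderm, was at 1.06, 1.59 and 1.26 FPKM at day 3 and 1.8, 0.927 and 0.981 FPKM at day 5. Its libraries overlapped, and the log2 change of -0.06 was not called (adjusted p = 0.834). Chrd, an organizer antagonist of BMP, rose from 0.325 ± 0.177 to 7.98 ± 0.587 FPKM. Of the targets, Id3 and Msx1 rose with log2 changes of 1.22 and 1.04, and Id2 fell (-0.94). The other member that fell, the inhibitor Smad7 (-0.61), lost its call without knockout replicate 1 of day 3 (adjusted p = 0.0501) or of day 5 (adjusted p = 0.0567) and with no filter (adjusted p = 0.066).

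In the FGF list 17 of 20 genes were tested, 8 rose and 4 fell. The ligands exchanged places. Fgf4, the ligand that stem cells and early epiblast secrete, was at 42.8, 47.4 and 41.5 FPKM at day 3 and at 3.28, 3.17 and 4.07 FPKM at day 5. Its log2 change of -3.32 (SE 0.11, adjusted p = 4.21e-07) was the lowest of the genes named here. Fgf15 fell from 26.6 ± 1.82 to 2.69 ± 0.471 FPKM. Fgf8 rose as given above, and Fgf5, a marker of epiblast, rose from 47.7 ± 3.73 to 89.4 ± 1.58 FPKM. Dusp6, a phosphatase that FGF signals induce, rose from 26 ± 0.515 to 71.9 ± 3.62 FPKM. The count that fell was 2 in place of 4 when any 1 library other than day 3 replicate 3 was left out. In the Notch list 10 of 16 genes were tested, 5 rose and 2 fell. The target Hes1 rose from 23.2 ± 1.32 to 91.3 ± 3.46 FPKM, Nrarp (log2 change 2.02) and the ligand Jag1 (1.58) rose, and the ligand Dll1 fell from 2.77, 3.59 and 3.28 FPKM to 1.05, 0.885 and 0.959 FPKM (log2 change -1.10, SE 0.13, adjusted p = 0.000397).

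Of the 13 definitive endoderm genes, 10 were tested and 9 rose, 6 of the 10 having reached the filter through day 5 alone. Sox17, an HMG-box factor that specifies endoderm, went from 0.208, 0.181 and 0.174 FPKM to 12.2, 10.2 and 10.6 FPKM (log2 change 3.33, SE 0.12, adjusted p = 7.66e-07). Cxcr4, a chemokine receptor of endoderm and migrating mesoderm, rose from 0.473 ± 0.335 to 12.0 ± 1.19 FPKM, and the GATA factor Gata6 from 0.252 ± 0.121 to 8.29 ± 0.825 FPKM. The hormone precursor Trh, at 142 ± 19.4 FPKM by day 3, rose to 507 ± 15.1 FPKM. The exception was Otx2, a homeobox factor shared with epiblast, at 99.7 ± 6.34 and 97.2 ± 2.38 FPKM (log2 change -0.03, adjusted p = 0.804). Of the visceral and parietal endoderm genes, 15 of 21 were tested and 11 rose. The visceral endoderm markers Afp, Ttr, Apoa1 and Amn summed to 2.23 to 3.97 FPKM per library at day 3 and to 8.44 to 15.6 FPKM at day 5. Of these, Ttr went from 1.80 ± 0.548 to 7.35 ± 2.15 FPKM. Apoe, which encodes a secreted apolipoprotein, was far higher, at 203 ± 28.2 and 307 ± 25.1 FPKM.

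Core pluripotency genes did not move as a block. Of 12 tested, 6 fell, 2 rose and 4 were not called in both scalings. Pou5f1, the POU factor on which pluripotency depends, was at 387, 457 and 348 FPKM at day 3 and 348, 319 and 355 FPKM at day 5. Its libraries overlapped, and the log2 change was -0.21 as deposited (adjusted p = 0.245) and -0.35 after rescaling (adjusted p = 0.0187). Sox2, its partner, fell from 113, 120 and 81.9 FPKM to 48.3, 39.5 and 40.8 FPKM (log2 change -1.26, SE 0.15, adjusted p = 0.000383). Nanog, a homeobox factor of naive cells that is also active in the posterior epiblast, rose from 43.3, 44 and 47.5 FPKM to 87.4, 88.5 and 100 FPKM (log2 change 1.02, SE 0.098, adjusted p = 0.000104). Sox2 and Nanog thus moved in opposite directions, each with no overlap between the days. Dppa2 (log2 change -2.46), Utf1 (-1.93), Dppa4 (-1.59), Esrrb (-0.87) and Rif1 (-0.70) fell. Zfp281 was listed at 0 in knockout replicate 1 of day 5 and at 32.7 and 31.4 FPKM in the other 2, so its value is not used here.

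Among naive state genes, 12 of 16 were tested, 6 fell and 1 rose. Besides Fgf4, those that fell were Nr0b1 (log2 change -1.97), Spp1 (-1.83), Dppa5a (-1.79), Zfp42 (-0.60) and Tdh (-0.52, adjusted p = 0.109 where the 12 libraries share 1 spread), and the one that rose was Dppa3 (1.45), which is also a germ cell marker. Zfp42, a zinc finger gene of naive cells, was at 36.2 ± 6.13 FPKM at day 3 and 23.5 ± 3.01 FPKM at day 5. In the formative and primed epiblast list 14 of 15 genes were tested, 2 rose and 4 fell, beside 19% and 11.4% of all genes tested. The POU factor Pou3f1 fell from 20.3 ± 0.87 to 4.25 ± 0.488 FPKM, and Fgf5 and Cldn6 (log2 change 0.60) rose.

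The DNA methylation machinery was lower at day 5. Of 9 genes tested, 6 fell and none rose, and the other 3 were Dnmt1 (log2 change -0.17), Tdg (-0.34) and Tet3 (0.42). Dnmt3a, one of the 2 de novo methyltransferases, went from 193, 161 and 151 FPKM to 35.1, 25.5 and 30.4 FPKM (log2 change -2.44, SE 0.14, adjusted p = 6.28e-06). Its cofactor Dnmt3l went from 54.6, 65.4 and 48.9 FPKM to 9.59, 7.68 and 9.26 FPKM (log2 change -2.54, SE 0.13, adjusted p = 3.54e-06). In both genes the libraries of the days were far apart. The other de novo enzyme Dnmt3b fell from 559 ± 76 to 318 ± 16.2 FPKM, and the demethylating oxygenase Tet1 fell from 54.1 ± 4.94 to 21 ± 1.73 FPKM. Germ cell genes fell as well, 7 of 12 tested against 3 that rose. Those that fell included the piRNA pathway gene Mael (log2 change -2.55), Taf7l (-1.83), the helicase Ddx4 (-1.65) and Dazl (-1.46), and those that rose were the receptor Kit (2.30), Dppa3 and Prdm1 (1.29).

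Many genes of the mesenchymal state and of the actin cytoskeleton rose, and few epithelial genes fell. In the mesenchymal transition list 12 of 18 genes were tested, 9 rose and none fell. Cdh2, the cadherin of mesenchyme, went from 1.32, 1.35 and 1.19 FPKM to 28.3, 31.8 and 25.3 FPKM (log2 change 3.68, SE 0.12, adjusted p = 3.15e-07), and the filament protein Vim rose from 16.0 ± 2.34 to 71.7 ± 5.33 FPKM. Snai1, the repressor of the epithelial cadherin, stayed under the filter at 0.303, 0.0898 and 0.0636 FPKM and then 0.474, 0.637 and 0.729 FPKM. Fn1, the matrix protein fibronectin, was at 36, 25.9 and 41.2 FPKM at day 3 and 31.8, 33.7 and 26.7 FPKM at day 5, with overlapping libraries (log2 change -0.14, adjusted p = 0.564). The epithelial list had 20 genes tested, 9 that rose and 1 that fell. The cadherin Cdh1 was at 122 ± 6.69 and 105 ± 8.55 FPKM (log2 change -0.21, adjusted p = 0.142 as deposited and 0.0387 after rescaling). The keratin Krt8 rose from 4.52 ± 0.552 to 50.1 ± 1.97 FPKM.

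Of the smooth muscle and actin list, 16 of 17 genes were tested, 12 rose and 2 fell (1 without replicate 1 or 3 of day 3 or replicate 3 of day 5). Tpm1, a tropomyosin, rose from 117 ± 6.5 to 378 ± 22.5 FPKM. The actin-binding gene Tagln rose from 12.8 ± 0.595 to 60.6 ± 11.4 FPKM, and the secreted matricellular genes Cyr61 and Ctgf rose with log2 changes of 3.31 and 1.23. Of 20 imprinted genes tested, 10 rose and 4 fell, and 1 or 2 fell without replicate 2 or 3 of day 3 or replicate 1 or 2 of day 5. Peg3 rose from 17.0 ± 1.17 to 74.1 ± 5.55 FPKM and Igf2 from 2.45 ± 0.328 to 8.31 ± 1.99 FPKM, while H19, its neighbour, was at 3.58 ± 1.51 and 3.45 ± 0.604 FPKM (log2 change 0.01, adjusted p = 0.981).

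**Figure D2:**
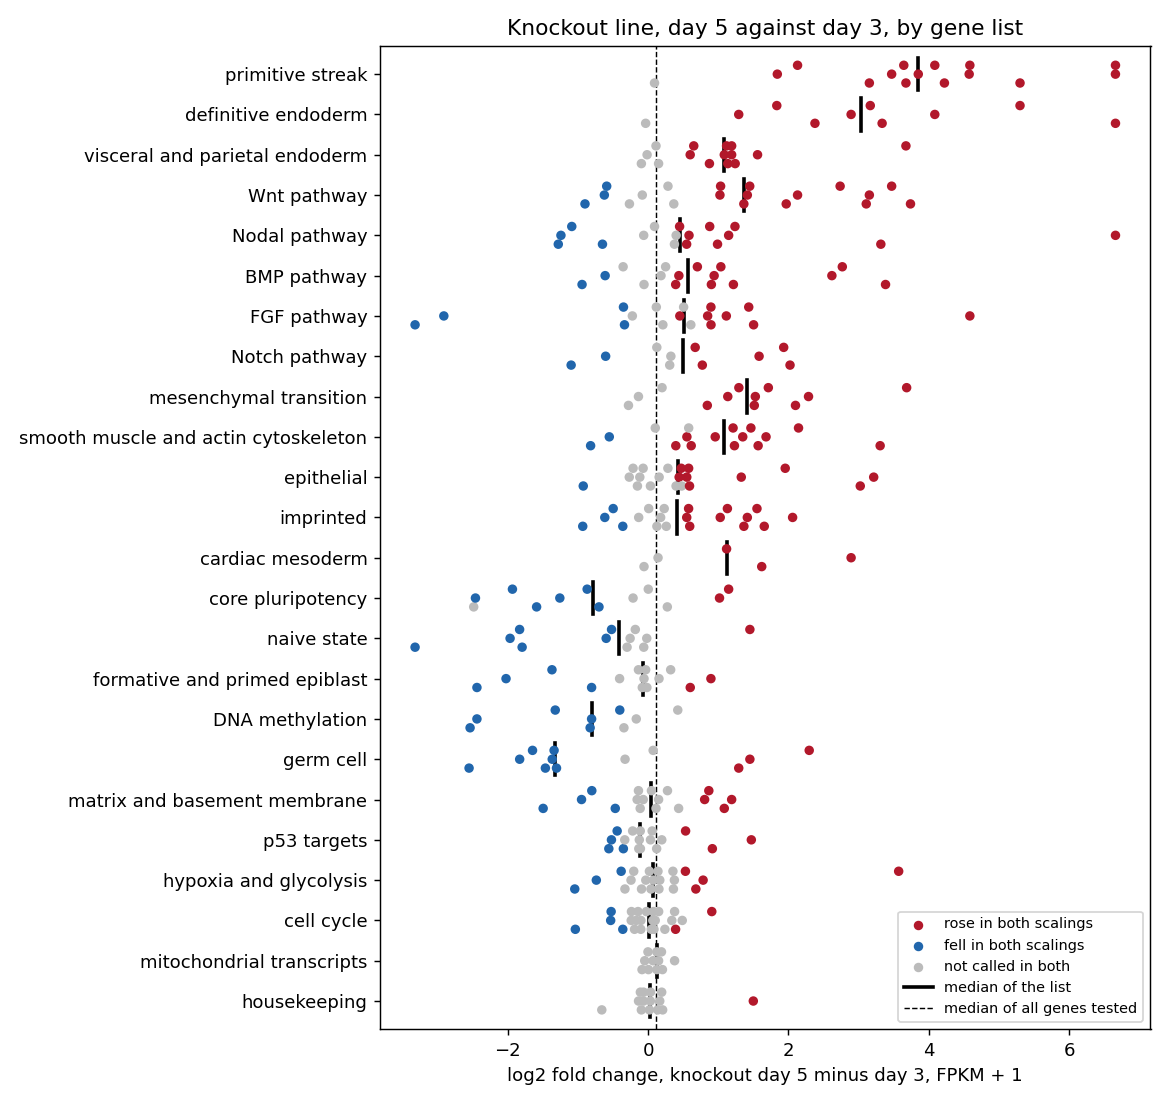
Log2 change from day 3 to day 5 in the knockout line (x axis, FPKM + 1) of each tested gene of 24 lists, with the list median (black line) and the median of all genes tested (dashed, 0.11). Primitive streak and definitive endoderm genes lie farthest to the right, DNA methylation and germ cell genes lie to the left, and cell cycle, mitochondrial and housekeeping genes lie around the dashed line.

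Genes of cardiac mesoderm were mostly below the filter in the knockout line at both days. Of 20, 5 were tested and 3 rose, and 14 of the other 15 had means under 1 FPKM at both days. Mesp1 was listed at 0, 0.0972 and 0 FPKM at day 3 and at 1.06, 1.91 and 1 FPKM at day 5. Kdr, the receptor that marks early vascular and cardiac mesoderm, was at 0.151 ± 0.127 and 0.927 ± 0.0757 FPKM, and the bHLH factor Hand1 at 0.216 ± 0.0884 and 0.435 ± 0.207 FPKM. The genes that rose were Gata6, the receptor Pdgfra, from 0.431 ± 0.0492 to 3.42 ± 0.539 FPKM, and the cardiac factor Gata4, from 1.06 ± 0.463 to 3.41 ± 0.537 FPKM (log2 change 1.12, SE 0.19, adjusted p = 0.00228). None of the 21 genes of the posterior and Hox list reached the filter, and the highest value in a library was 0.524 FPKM. Cdx2, which acts upstream of posterior Hox genes, was at 0.0302 ± 0.0278 and 0.128 ± 0.114 FPKM. Of the paraxial mesoderm list 4 of 15 were tested, 2 rose and 2 fell, beside 19% and 11.4% of all genes tested. Tcf15, 1 of those that fell, went from 9.30 ± 0.778 to 1.34 ± 0.611 FPKM.

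Markers of trophoblast, blood and fibroblasts were low. The 4 trophoblast markers summed to 0.113 to 0.337 FPKM per library at day 3, with Tpbpa at 0 in each, and to 0.359 to 0.708 FPKM at day 5. The 3 blood markers summed to no more than 0.459 FPKM, and the 4 fibroblast markers, 1 of which reached the filter, to 2.51 to 4.15 FPKM at day 3 and 1.98 to 2.56 FPKM at day 5. The neural markers, 3 of 4 of which were matched, summed to 13.3 to 14.9 FPKM and then 33.3 to 40.9 FPKM. In the control libraries they summed to 14.9 to 21.1 FPKM and then 13.8 to 15.2 FPKM. The rise in the knockout was carried by Nes, an intermediate filament gene that mesoderm also expresses, at 9.04 ± 0.945 and 36.4 ± 4.12 FPKM. The neuronal tubulin Tubb3 fell with a log2 change of -1.67. The streak markers T, Mixl1, Eomes, Fgf8 and Wnt3 summed to 4.24 to 6.94 FPKM at day 3 and 256 to 276 FPKM at day 5.

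Of the genes with the 12 highest log2 changes, 9 were members of these lists. The lists were chosen with earlier results of these data known, so this overlap is a description. The other 3 were Samd3, a gene of unsettled function, at 0.0417 ± 0.0627 and 24.7 ± 2.10 FPKM, the lipoxygenase Alox15, at 0.216 ± 0.079 and 22 ± 0.88 FPKM, and the protocadherin Pcdh7, at 0.029 ± 0.021 and 12.9 ± 0.83 FPKM. The 12 lowest also held Fgf4, Fgf15, Mael, Dnmt3l and Dppa2 from the lists. Of the rest, Gm13145, a predicted gene, fell from 48.8 ± 4.93 to 6.53 ± 0.736 FPKM, the ribosomal protein retrogene Rpl10l from 11.2 ± 1.34 to 0.896 ± 0.367 FPKM, the stress-response gene Nupr1 from 7.81 ± 1.53 to 0.434 ± 0.325 FPKM and the exchange factor Mcf2 from 35.4 ± 1.65 to 5.69 ± 0.713 FPKM. Gm16869 and Gm10801 were also among them, but their day 3 libraries ran from 11.9 to 112 FPKM and from 22.2 to 184 FPKM, and with no filter neither was called (adjusted p = 0.0748 and 0.0875). Reads of predicted genes with near-identical copies can be split between entries, so Gm13145, Rpl10l, Gm16869 and Gm10801 are uncertain.

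As deposited, lists on growth and library quality had medians near that of all genes. In the cell cycle list 2 of 24 genes rose (1 without replicate 1 of day 3 or replicate 3 of day 5) and 4 fell, with a median log2 change of 0.01. After rescaling alone, 2 of the 24 were higher and 10 lower, beside 2352 and 2276 of all 12387 genes tested. The rescaled median was -0.12 for the list and -0.0044 for all genes. None of 11 mitochondrial transcripts was called in either scaling, and their median was 0.12. Of 14 housekeeping genes 1 was called, B2m (log2 change 1.50), a subunit of the class I antigen complex, and the median was 0.03. In the hypoxia and glycolysis list 4 of 21 rose and 3 fell, beside 19% and 11.4% of all genes tested. The largest change was that of Ndrg1 (3.57), and the list median was 0.07.

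The same interval in the control line was used to ask which changes differed between the lines. As deposited, 2506 of 12230 genes passed in the control (20.5%), 5314 (43.5%) passed after rescaling and 4357 without control replicate 1 of day 3. For the difference, the knockout change minus the control change, 280 of 12346 genes passed (2.27%), 116 with a higher (0.94%) and 164 with a lower change (1.33%) in the knockout. A scale shared by a whole table cancels in this difference, while differences between libraries of 1 table do not. Rescaling gave 976 genes (7.91%), 523 higher and 453 lower, and leaving out control replicate 1 of day 3 gave 889, 659 higher and 230 lower. Without control replicate 3 of day 5 the count was 159, and without that library, control replicate 1 of day 5 or knockout replicate 3 of either day the higher genes numbered 72 to 77. Genes on chromosomes 1, 6, 8 and Y were also shifted as a whole between the lines, and 201 genes passed without them. Against the other chromosomes, their median log2 difference was shifted by -0.18, 0.26, 0.23 and -0.62, the Y value from 3 genes. Within the control change the same medians were shifted by 0.22, -0.20, -0.23 and 0.70. Within the knockout change they were shifted by 0.028, 0.057, -0.045 and -0.11. The part of these shifts in single genes was not tested. Genes named next passed in both scalings unless another p is given.

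T rose more in the knockout line than in the control. In the control it stood at 1.59 ± 0.665 FPKM at day 3 and 64.2 ± 15.6 FPKM at day 5, a log2 change of 4.66, and the difference was 2.00 (SE 0.28, adjusted p = 0.000815). Of the other streak genes, Wnt8a (difference in log2 change 2.14), Fst (1.83) and Fgf8 (1.48) also rose more in the knockout, and Cyp26a1 rose less (-1.37). Wnt8a reached 7.29 ± 2.16 FPKM in the control at day 5, and Fgf8 reached 36.5 ± 5.85 FPKM from a day 3 level of 3.35 ± 0.351 FPKM. The differences of Cer1 (0.64, adjusted p = 0.221), Foxa2 (0.64, adjusted p = 0.313), Mixl1 (0.27, adjusted p = 0.773) and Wnt3 (-0.02, SE 0.24, adjusted p = 0.991) did not pass. That of Eomes was 0.82 (adjusted p = 0.195), and it passed after rescaling (adjusted p = 0.00378).

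Nanog went opposite ways in the lines. In the control it was at 81.4 ± 21.5 FPKM at day 3 and 48.8 ± 7.16 FPKM at day 5, a log2 change of -0.70, against the rise in the knockout (difference 1.72, SE 0.28, adjusted p = 0.00223). Pou5f1 went from 356 ± 95 to 158 ± 16.9 FPKM in the control, and its difference of 0.92 passed after rescaling (adjusted p = 0.000343) but not as deposited (adjusted p = 0.188). The difference for Sox2 was -0.02 (SE 0.28, adjusted p = 0.993). Ctgf rose in the knockout and went from 18.6 ± 1.64 to 6.85 ± 1.38 FPKM in the control (difference 2.56, SE 0.23, adjusted p = 9.54e-06). Ppp4r4, a phosphatase regulatory subunit (2.48), Alox15 (2.18), the retinaldehyde reductase Dhrs3 (2.11) and Ndrg1 (2.01) completed the highest named by the rule, and Ndrg1 did not pass with a pseudocount of 0.1 (adjusted p = 0.0709). Tex13 had the highest difference (3.38), but it was at 0.394 ± 0.0808 and 0.124 ± 0.0139 FPKM in the knockout, and the change was in the control, from 17.8 ± 4.04 to 0.436 ± 0.176 FPKM. Dusp6, Nes and Tagln also rose more in the knockout, with differences of 1.46, 1.64 and 1.70.

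Mesoderm genes were among those with a lower change in the knockout. Of 20 cardiac mesoderm genes, 11 were tested over the 12 libraries, and 9 had a lower change in the knockout and none a higher one as deposited, beside 1.33% of all genes lower. Most of these genes reached the filter through the control libraries of day 5, so the count is a description. Mesp1 reached 16.2 ± 2.23 FPKM in the control at day 5, and the difference in log2 change was -2.87 (SE 0.25, adjusted p = 6.48e-06). Hand1 reached 9.79 ± 0.669 FPKM in the control (difference -2.88), Pdgfra 21.8 ± 1.17 FPKM (-2.39), Gata4 12.3 ± 1.43 FPKM (-1.71) and Snai1 3.31 ± 0.133 FPKM (-1.48, adjusted p = 0.0618 with a pseudocount of 0.1). For Kdr, at 19.4 ± 2.33 FPKM in the control at day 5, the difference of -2.52 passed as deposited (adjusted p = 0.0162) and not after rescaling (adjusted p = 0.0597), nor without control replicate 3 of day 5 (adjusted p = 0.0541), with a pseudocount of 0.1 (0.386), with no filter (0.138) or with robust eBayes (0.107). The control libraries of day 5 lay above each knockout library for these genes.

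Dll1, which fell in the knockout, went from 1.69 ± 0.958 to 8.45 ± 0.507 FPKM in the control, and the difference was -2.97 (SE 0.28, adjusted p = 1.42e-05). Fn1 went from 27.5 ± 3.49 to 143 ± 12.6 FPKM in the control, against no called change in the knockout (difference -2.48, SE 0.26, adjusted p = 4.19e-05). The calpain Capn6 (difference -3.19), the ligand Bmp5 (-2.71), the RNA export gene Nxf7 (-2.61) and the trypsin-like Gm5771 (-2.59) were also among the lowest. Bmp5 reached 11.3 ± 2.76 FPKM in the control and 0.597 ± 0.226 FPKM in the knockout. The predicted gene Gm17134 had the lowest difference (-3.26), and its knockout libraries of day 5 ran from 1.91 to 16.3 FPKM. It did not pass without replicate 3 of knockout day 3, replicate 2 of control day 3 or replicate 1 or 3 of control day 5 (adjusted p 0.0614 to 0.0717), nor with no filter (adjusted p = 0.186) or robust eBayes (adjusted p = 0.21). Bmp4 (-1.34) and Igf2 (-1.58) were lower as well, Bmp4 not with no filter (adjusted p = 0.0609).

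**Figure D3:**
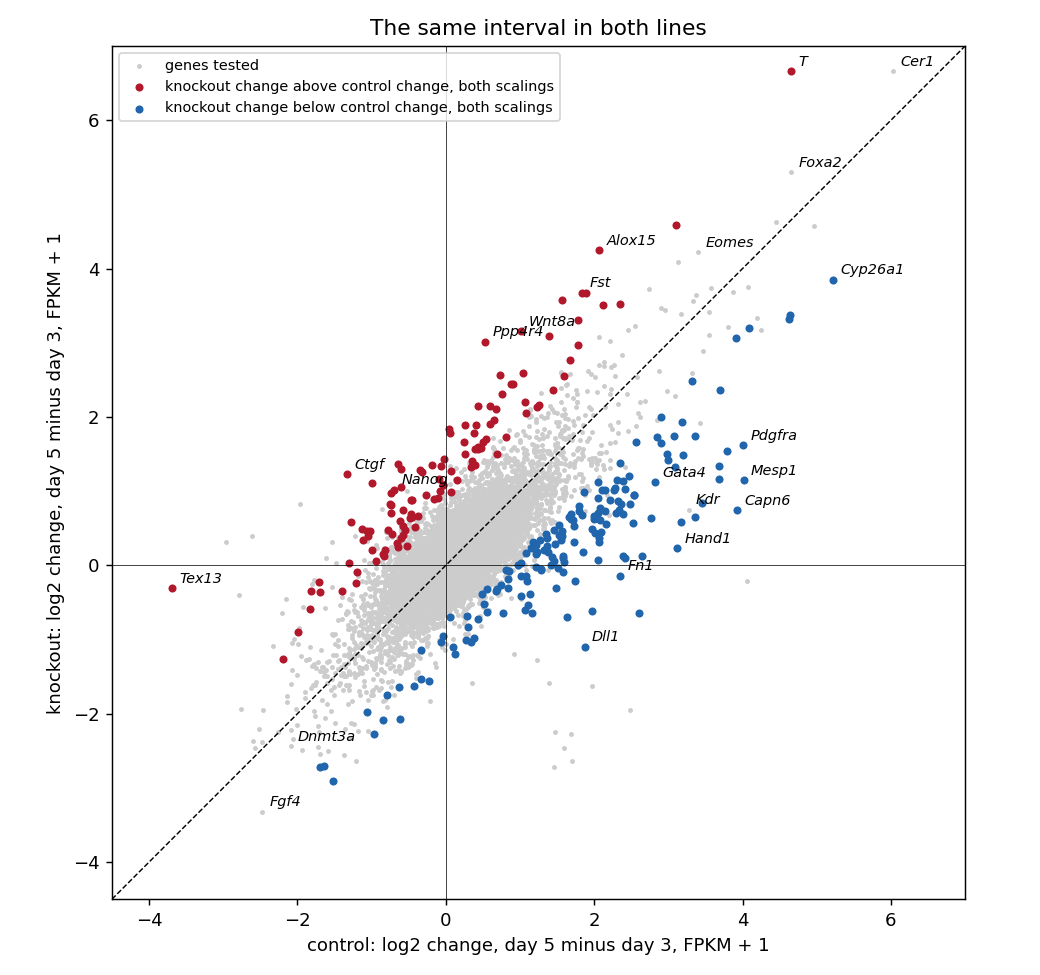
Log2 change from day 3 to day 5 in the control line (x axis) and in the knockout line (y axis) for the genes tested over 12 libraries, with genes whose change differed between the lines in both scalings in red (higher in the knockout) and blue (lower in the knockout). Foxa2, Eomes and Cer1 lie above the dashed line of equal change, but their differences did not pass in both scalings. T, Nanog and Ctgf lie farther above it, and Mesp1, Hand1, Fn1 and Dll1 lie below it.

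Over the 6 days, each in its own table, the knockout levels of the streak genes tested peaked at day 5. Those of Hand1, Kdr and Fn1 were lower at day 5 than at day 8. T was at 0.26 ± 0.0681 FPKM at day 0 and 11.1 ± 3.31 FPKM at day 8, and Cer1 was at 9.56 ± 1.00 FPKM at day 8. Nanog was at 296 ± 16.9 FPKM at day 0 and 22.6 ± 5.91 FPKM at day 8, so its day 3 level lay below those of day 0 and day 5. Dnmt3b was at 29.9 ± 0.68 FPKM at day 0, and its highest mean was that of day 3. Mesp1 had means of no more than 1.32 FPKM, its day 5 mean, at any of the 6 days in the knockout. No library was taken between day 5 and day 8. Hand1 was at 11.2 ± 4.2 FPKM at day 8 and 40.7 ± 2.8 FPKM at day 12, Kdr at 16.2 ± 2.2 FPKM at day 8 and Fn1 at 174 ± 35 FPKM at day 8. In the control Hand1 and Fn1 had reached 40.2 ± 8.9 and 213 ± 32 FPKM at day 8. These levels were not tested across days other than 3 and 5.

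**Figure D4:**
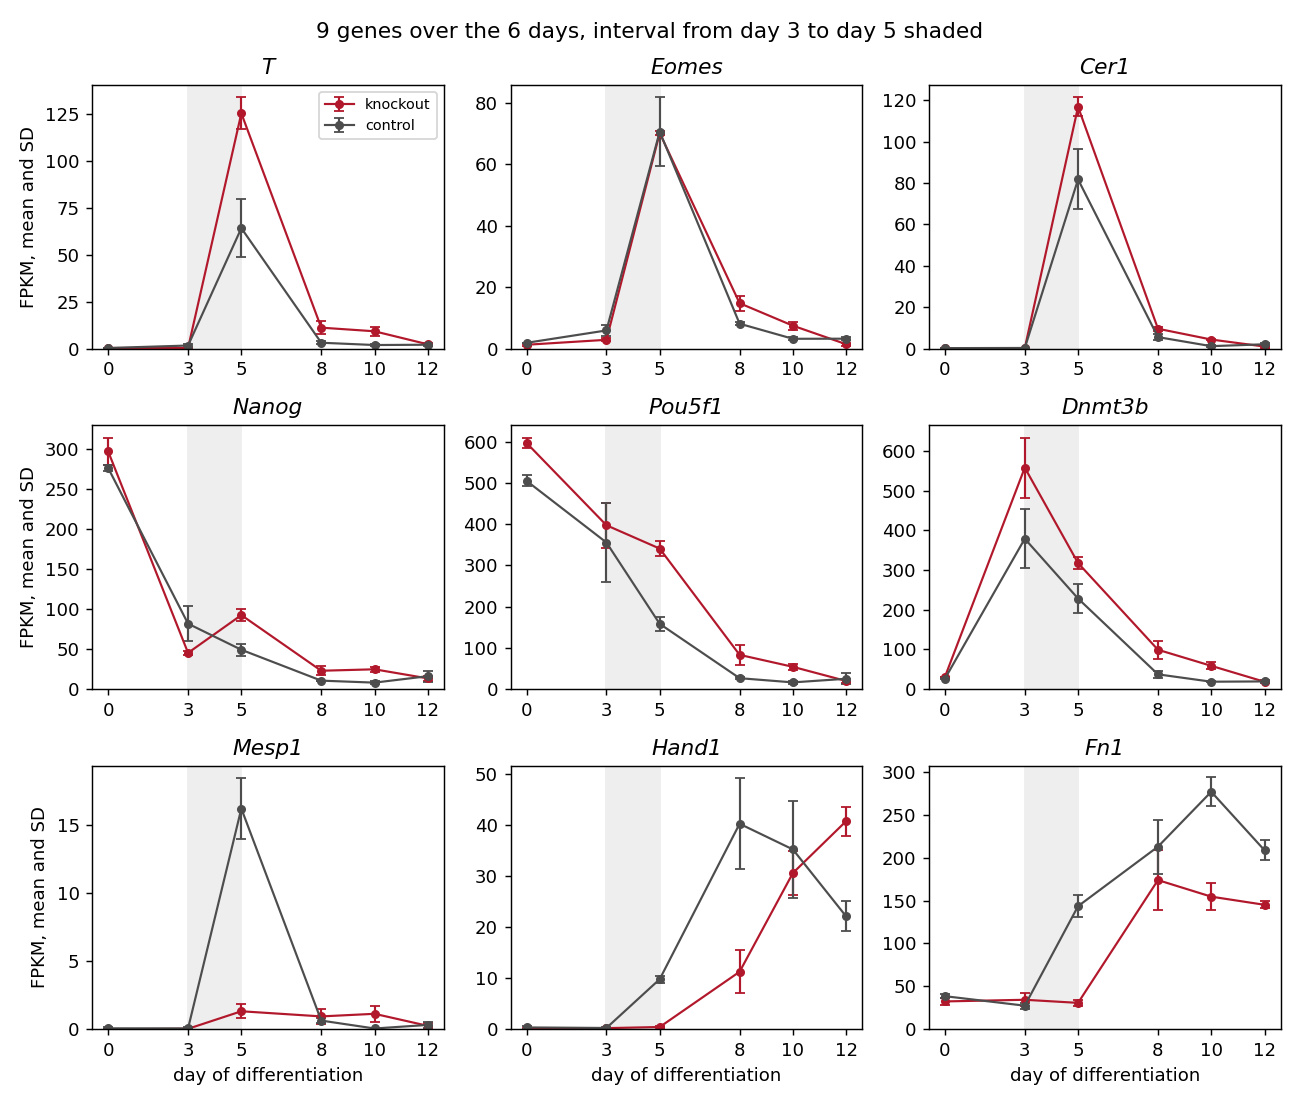
Mean FPKM and SD of 3 libraries for 9 genes over days 0, 3, 5, 8, 10 and 12 (red, knockout; grey, control; each day is a separate table), with the interval from day 3 to day 5 shaded. T, Eomes and Cer1 peak at day 5 in both lines, and Mesp1 peaks at 16.2 FPKM in the control and stays at or below 1.32 FPKM in the knockout.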

How the data were processed

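The authors deposited FPKM values in 1 table per day, 37561 gene entries by 6 libraries. Per the submitters' processing notes TopHat, Cufflinks and the mouse build mm9 were used. Versions, settings and annotation are not given in the sources used here. Libraries were grouped by their titles. From the 2 tables, genes averaging at least 1 FPKM were put on log2(FPKM + 1) and tested with limma 3.58.1 in R 4.3.3 (lmFit, eBayes with a trend, two-sided), with Benjamini-Hochberg adjustment over all genes and calls at 0.05. With 3 libraries a group, exact permutation p-values cannot fall below 0.1. The test was checked on simulated data with 200 changed genes among 12387. It recovered 13 of 67 genes at a log2 change of 0.5, 60 of 67 at 1 and 66 of 66 at 2. Most changes of 0.5 were thus missed there, and 8 of the 147 calls were false. In the data 4431 genes were called, far more than were changed in the simulation, so these shares need not hold for them. No 2 libraries were identical. Chromosomes came from GENCODE M21 by gene identifier (32616 entries).

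Members and the 35 lists (537 of 547 genes matched) were chosen with earlier results of these data known. Named genes are the 12 highest and 12 lowest changes past the threshold in both scalings, with no overlap between days and 5 FPKM or more at the higher day, up to 5 members per list, a marker panel and the 8 highest and 8 lowest differences between the lines. List members below these ranks are outside the rule and were chosen after their values were seen. Small RNA entries were left out, and 1 gene that the rule names is not reported here. RefSeq promoter windows matched 8100 of 12387 genes tested (65.4%), too few to compare called genes with others, so that comparison is void.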

Additional observations from a re-analysis of the deposited data

Results flagged for a closer look

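The change from day 3 to day 5 differed between the knockout and control lines by a test of the difference itself for 40 of the genes named in the report. Values here are the knockout change minus the control change on the log2 scale. Those higher in the knockout were Tex13 (3.38), Ctgf (2.56), Ppp4r4 (2.48), Alox15 (2.18), Wnt8a (2.14), Dhrs3 (2.11), Ndrg1 (2.01), T (2.00), Fst (1.83), Trh (1.79), Nanog (1.72), Tagln (1.70), Nes (1.64), Cyr61 (1.53), Fgf8 (1.48), Dusp6 (1.46) and Chrd (1.09). Trh was at 424 ± 144 FPKM in the control at day 3 and at 421 ± 62.6 FPKM at day 5, against a rise in the knockout from a lower day 3 level.

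Those lower in the knockout were Gm17134 (-3.26), Capn6 (-3.19), Dll1 (-2.97), Hand1 (-2.88), Mesp1 (-2.87), Bmp5 (-2.71), Nxf7 (-2.61), Gm5771 (-2.59), Kdr (-2.52), Fn1 (-2.48), Pdgfra (-2.39), Gata4 (-1.71), Igf2 (-1.58), Snai1 (-1.48), Fgf15 (-1.38), Cyp26a1 (-1.37), Bmp4 (-1.34), the coreceptor Cfc1 (-1.31), the BMP target Msx1 (-1.25), the Wnt receptor Fzd7 (-1.18), Rpl10l (-1.06), Gm13145 (-1.02) and the Wnt factor Lef1 (-0.935). Kdr did not pass after rescaling. With each of the 12 libraries left out in turn, calls were lost in 9 cases each for Lef1 and Rpl10l, 6 for Gm13145, 4 for Gm17134 and 1 each for Kdr and Cfc1. With a pseudocount of 0.1 the call was also lost for Kdr (adjusted p = 0.386), Chrd (0.767, at a difference of 0.624), Rpl10l (0.517), Cfc1 (0.285), Msx1 (0.0779), Ndrg1 (0.0709), Gm13145 (0.069), Snai1 (0.0618), Lef1 (0.06) and Gm17134 (0.0546). With no filter on low values it was lost for Gm17134 (adjusted p = 0.186), Kdr (0.138), Rpl10l (0.133), Cyr61 (0.0909), Lef1 (0.0705), Bmp4 (0.0609), Msx1 (0.0609), Trh (0.0591) and Cfc1 (0.0566), and with robust eBayes for Gm17134 (0.21) and Kdr (0.107). Lef1 was also lost at a mean of 5 FPKM or more (0.057), and Rpl10l after quantile normalization (0.0567), with the replicate block (0.0575) and without chromosomes 1, 6, 8 and Y (0.0521). Fgf15 fell in both lines, from 17.7 ± 2.22 to 5.48 ± 0.468 FPKM in the control.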

How the results depend on the processing

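For the knockout change, 4431 genes became 2891 (1919 higher) at a mean of 5 FPKM or more, where fewer genes were tested. The 1418 lower genes became 2276 after median-ratio rescaling and 2237 after quantile normalization, for which the cause was not tested. Its other counts stayed within 1.5 times, leave-one-out included (3339 to 4588). The control count of 2506 became 5314 after rescaling, 5257 after quantile normalization and 1395 at 5 FPKM, and 1678 to 4357 with 1 library left out. The difference of 280 genes (116 higher, 164 lower) became 976 (523, 453) after rescaling, 1057 (552, 505) after quantile normalization and 100 (55, 45) at 5 FPKM. With a pseudocount of 0.1 it was 178, 91 of them lower. Without chromosomes 1, 6, 8 and Y, 75 were higher. With 1 library left out it ran from 159 to 889, from 72 to 659 higher and from 87 to 230 lower.

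Same-numbered knockout libraries of the 2 days correlated at 0.025, 0.081 and 0.077 in their deviations, and each correlated best with its own number. Same-numbered control libraries of the 2 days correlated at 0.197, 0.079 and 0.103, and different-numbered ones at -0.173 to 0.087. Whether same-numbered libraries share more than a number was not tested. With the replicate block the knockout count was 4098, the control count 4241 and the difference 317.

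Genes whose direction turned were not called in the knockout change. After rescaling and quantile normalization, Nodal was at -0.0319 and -0.046 and H19 at -0.0891 and -0.179. With 1 library left out, Nodal ran from -0.0108 to 0.172, Bmp4 from -0.231 to 0.0388, Otx2 from -0.083 to 0.00786, Fn1 from -0.322 to 0.00351, H19 from -0.263 to 0.236 and Gm17134 from -1.12 to 0.165. FPKM carries no counts, so what depth limits could not be computed, and genes under 1 FPKM were not tested.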

Other observations

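Several genes of motile cilia rose in the knockout line, and the control means of these genes, given below, were also higher at day 5. This was noticed in the data, and the 29 genes below were listed afterwards from textbook knowledge, so no test is given. Motile cilia beat in the node at the anterior end of the streak, where their flow sets the left-right axis. Of 25 genes matched, 18 reached the filter, and those under 1 FPKM at day 3, such as Nme5, Enkur and Pkd1l1, reached it through day 5 alone and had to differ, so no count of rises is given. Foxj1, the transcription factor that drives motile cilia, was at 2.17, 3.52 and 2.31 FPKM at day 3 and at 33.8, 33 and 31.8 FPKM at day 5. Pkd1l1, a channel-like protein that senses flow at the node, went from 0.0924 ± 0.06 to 10.9 ± 1.54 FPKM. The axonemal genes Nme5 and Enkur went from 0.521 ± 0.264 to 16.3 ± 1.43 FPKM and from 0.153 ± 0.114 to 9.44 ± 1.55 FPKM, and the radial spoke gene Rsph4a from 0.813 ± 0.119 to 6.35 ± 0.565 FPKM. Ccno, which acts in making many centrioles, went from 0.912 ± 0.147 to 6.15 ± 1.28 FPKM. In the control Foxj1 went from 1.01 ± 0.227 to 10.8 ± 1.88 FPKM and Ccno from 0.701 ± 0.0798 to 1.26 ± 0.241 FPKM. Control levels of Pkd1l1 went from 0.033 ± 0.019 to 7.07 ± 1.26 FPKM and of Nme5 from 0.39 ± 0.22 to 6.1 ± 1.2 FPKM. Those of Enkur went from 0.043 ± 0.074 to 4.8 ± 1.1 FPKM and of Rsph4a from 0.61 ± 0.14 to 2.58 ± 0.53 FPKM. Rfx2, the dynein gene Dnaic1 and the radial spoke gene Rsph1 did not share the rise, with log2 changes of -0.23, -0.33 and -0.54. Noto, a node factor, was at 0.765 ± 0.408 FPKM at day 5.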
